A study of Mus musculus with 14 samples.

Results

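The phagocyte NADPH oxidase was followed through 5 of its subunit genes, Cybb, Cyba, Ncf1, Ncf4 and Rac2, in RNA sequencing of epididymal white adipose tissue (eWAT), the visceral fat pad beside the epididymis of male mice. These 5 genes were chosen by their symbols, out of 23282 genes in the count table. Earlier results of these data were known when they were chosen. All 14 libraries came from wild-type male C57BL/6J mice, bought at 4 weeks of age per the study's methods, that were fed for 20 weeks either a normal diet (control) or a Western diet (WD), a fat-rich diet with added cholesterol. Batch 1 held 4 control libraries (replicates 1 to 4) and all 5 WD libraries, and batch 2 held 5 further control libraries (replicates 5 to 9). The mice carried no transgene and received no other agent per the labels, and the labels do not say what the batches differed in. The question was whether the subunit genes differed between the diets, and how that compared with other genes of oxidant production and with markers of the cells that make this enzyme.

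The phagocyte NADPH oxidase moves electrons from NADPH across a membrane onto oxygen and so makes superoxide, the starting point of the respiratory burst with which neutrophils and macrophages kill microbes. The catalytic flavocytochrome sits in the membrane as a pair of gp91phox (Cybb, also called NOX2) and p22phox (Cyba). In resting cells the organizer p47phox (Ncf1) and its partner p40phox (Ncf4) stay in the cytosol, and they join the membrane pair together with a Rac GTPase, Rac2 in most leukocytes, when the cell is stimulated. Loss of a subunit causes chronic granulomatous disease in people. In fat, macrophages gather around stressed adipocytes in obesity and are the usual source of this enzyme there, while p22phox and Rac1 are used by other NADPH oxidases in many other cell types.

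On mm10, the genome build named in the submitters' processing notes, the deposited table placed Cyba at chr8:122424771-122432940, Cybb at chrX:9435254-9469324, Ncf1 at chr5:134220053-134229625 and Rac2 at chr15:78559169-78572783, all on the minus strand, and Ncf4 at chr15:78244811-78262580 on the plus strand. All 5 are protein-coding. For 2 of them the annotation placed another gene on the opposite strand of the same stretch. Gm20388 ran over the whole of Cyba and is not analysed here, and Gtf2ird2 covered 4303 bases of Ncf1, its 3′ end included. The use of strand in the counting is not given in the sources used here, so that reads of Cyba and Gm20388, or of Ncf1 and Gtf2ird2, cannot be told apart where they overlap. Gtf2ird2 itself had between 0 and 109 counts per library.

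Promoter windows from RefSeq (GRCm38.p6), with 250 bases before the start site, were found for 3 of the 5 genes, Cybb, Cyba and Ncf1. They are shown because PU.1 (Spi1), a transcription factor of myeloid cells described further on with the subunits, is known to bind purine-rich letters near the starts of many phagocyte genes. Each is printed 5′ to 3′ on the strand of its gene and ends 15 bases into the transcript, and the capitals mark the letters found in the search described after them.

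Cybb, chrX:9469310-9469574, minus strand: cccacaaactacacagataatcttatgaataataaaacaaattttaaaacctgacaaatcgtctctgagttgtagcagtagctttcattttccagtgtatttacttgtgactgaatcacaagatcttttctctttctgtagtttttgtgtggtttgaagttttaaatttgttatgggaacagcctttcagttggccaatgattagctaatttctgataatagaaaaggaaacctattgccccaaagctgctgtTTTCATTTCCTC
Cyba, chr8:122432926-122433190, minus strand: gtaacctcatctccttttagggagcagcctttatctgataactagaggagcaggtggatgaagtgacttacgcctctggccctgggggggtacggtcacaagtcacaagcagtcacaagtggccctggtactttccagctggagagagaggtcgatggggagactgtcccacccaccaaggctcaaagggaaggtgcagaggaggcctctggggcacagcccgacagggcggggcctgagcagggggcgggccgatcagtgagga
Ncf1, chr5:134229611-134229875, minus strand: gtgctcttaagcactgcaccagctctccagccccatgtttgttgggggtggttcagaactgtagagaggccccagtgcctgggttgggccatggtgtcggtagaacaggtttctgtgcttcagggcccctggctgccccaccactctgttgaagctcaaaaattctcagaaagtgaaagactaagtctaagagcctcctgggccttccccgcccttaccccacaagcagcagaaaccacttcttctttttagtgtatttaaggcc

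The letters GAGGAAGT and the shorter GAGGAA, both taken from PU.1 sites, and the composite PU.1 and IRF element, to which PU.1 binds together with interferon regulatory factors, were searched on both strands of 300 bases, from 250 before to 50 after each start. GAGGAA, which lies within GAGGAAGT, occurred in 28.3% of the 32851 promoter windows of the table, GAGGAAGT in 3.2% and the composite element in 2.72%. Among the subunit genes, the window of Cybb held 1 match each of GAGGAA and the composite element. Both lay on the strand opposite to the transcript, overlapped each other and sat just inside the transcript, at the end of the printed sequence. The windows of Cyba and Ncf1 held none of these letters, which says only that they are not in these windows.

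QuantSeq, the method used, reads only the stretch before the poly(A) tail, and longer genes therefore gain no extra counts. Levels are given as CPM, the counts scaled to an equal library size, after TMM correction of the library totals, which ranged from 10278970 to 13712254 counts. A count of 3 was used as the detection limit and was worth 0.212 to 0.324 CPM. Adipocyte markers were present in every library, with a summed level of 26700 to 68000 CPM, except that control replicate 1 had 6590 CPM. That library also had 45400 CPM over 15 epididymis markers, which summed to no more than 23.9 CPM in each of the other 13 libraries. Control replicate 4 stood apart in another way, with 7999 genes detected against 10903 to 13780 in the rest. Both belong to the batch 1 controls. The batch 1 fold changes of the subunit genes are also given without each of them, and most other values include both.

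**Figure D1:**
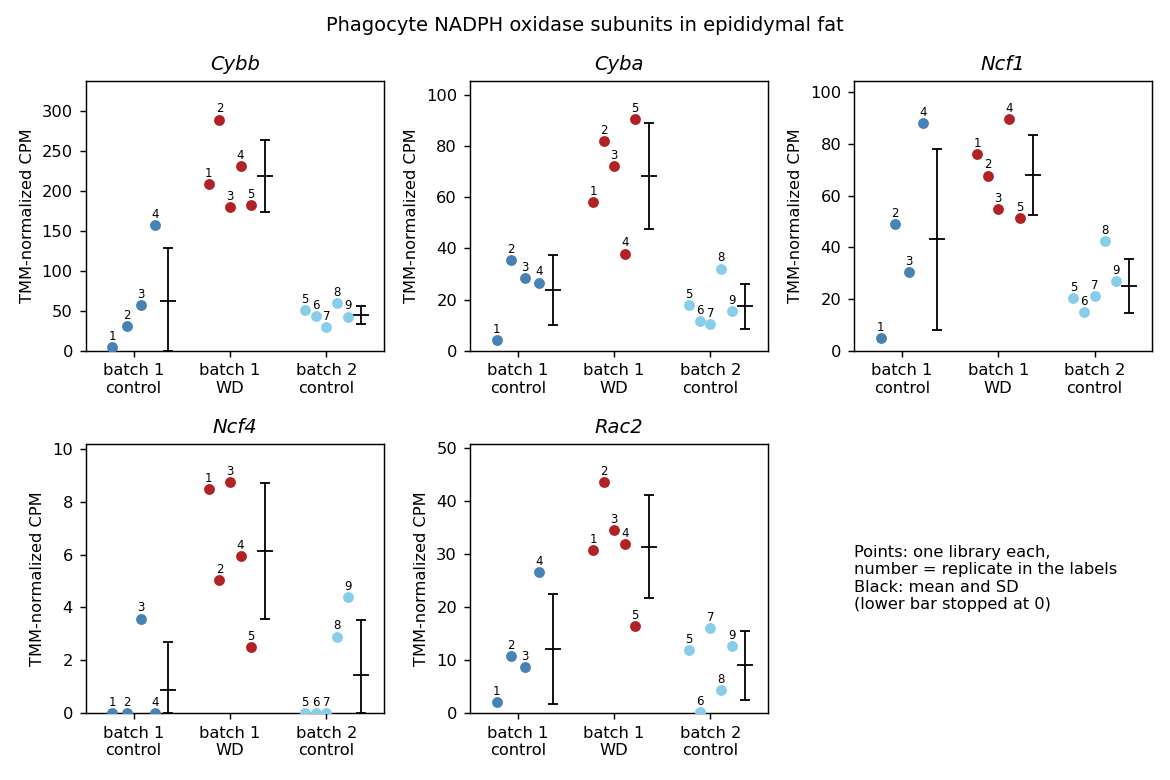
TMM-normalized CPM (vertical axes, starting at 0) of the 5 subunit genes in each library, in the batch 1 controls, the batch 1 WD libraries and the batch 2 controls, with the replicate number of the labels at each point and the mean and SD in black. For Cybb and Cyba all 5 WD points lie above all 9 control points, whereas Ncf1, Ncf4 and Rac2 each have at least 1 control library within the WD range.

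The level of Cybb, the catalytic subunit, was higher in every WD library than in every control library. Cybb had 42, 373, 683 and 2157 counts in control replicates 1 to 4 and 2952, 2691, 2428, 2914 and 2179 counts in WD replicates 1 to 5. In batch 2 the controls, replicates 5 to 9, had 721, 451, 390, 779 and 426 counts. Control replicate 4, at 157 CPM, was the only control near the WD range, which began at 180 CPM, and control replicate 1 was lowest at 4.54 CPM. The means were 62.3 ± 66.4 CPM in the batch 1 controls (SD, n = 4), 218 ± 44.9 CPM in the WD group (SD, n = 5) and 45.0 ± 11.2 CPM in the batch 2 controls (SD, n = 5). The spread of the batch 1 controls was therefore larger than their mean.

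Cyba, whose product stabilizes gp91phox and anchors the cytosolic subunits, showed the same order of libraries by diet. It had 39, 425, 341 and 367 counts in control replicates 1 to 4 and 823, 764, 975, 479 and 1086 counts in the WD libraries. Its levels in control replicates 5 to 9 were 17.8, 11.5, 10.3, 32.1 and 15.4 CPM. The gap between the groups was narrow, because the lowest WD library (replicate 4, 37.9 CPM) lay just above the highest control (replicate 2, 35.5 CPM). Mean levels were 23.7 ± 13.5 CPM in the batch 1 controls, 68.1 ± 20.7 CPM in the WD group and 17.4 ± 8.74 CPM in the batch 2 controls (SD, n = 4, 5 and 5).

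Ncf1, the organizer that is phosphorylated when the enzyme is switched on, overlapped between the diets. The batch 1 controls had 45, 586, 364 and 1213 counts, the WD libraries 1077, 631, 741, 1132 and 617, and the batch 2 controls 289, 156, 281, 553 and 270. Control replicate 4 reached 88 CPM, higher than 4 of the 5 WD libraries, and the other 8 controls lay below all WD libraries. The means were 43.0 ± 35.0, 67.9 ± 15.6 and 25.1 ± 10.5 CPM (SD, n = 4, 5 and 5) in the batch 1 controls, the WD group and the batch 2 controls.

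Ncf4, whose product binds the lipid of phagosome membranes, was the scarcest of the 5. It had 120, 47, 118, 75 and 30 counts in the WD libraries, and among the controls it was counted only in replicate 3 (43 counts), replicate 8 (38 counts) and replicate 9 (44 counts). The other 6 controls had 0 counts, which allows a level of up to 3 counts. Of the 5 WD libraries, 4 lay above every control, and WD replicate 5 at 2.50 CPM lay below all 3 controls with a count. The mean was 6.14 ± 2.58 CPM in the WD group (SD, n = 5).

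Rac2, the leukocyte GTPase of the complex, had 20, 130, 105 and 367 counts in the batch 1 controls and 435, 405, 466, 403 and 197 counts in the WD libraries. The batch 2 controls had 169, 2, 214, 58 and 127 counts. Control replicate 4 again came closest to the WD group among the controls, at 26.6 CPM, above WD replicate 5 at 16.4 CPM and below the other 4 WD libraries. Control replicate 6, with 2 counts, was under the detection limit. The means were 12.1 ± 10.4, 31.4 ± 9.75 and 9.05 ± 6.52 CPM (SD, n = 4, 5 and 5) in the order given above.

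Summed per library, the 5 subunit genes reached 342 to 487 CPM in the WD libraries, 15.8 to 298 CPM in the batch 1 controls and 69.6 to 141 CPM in the batch 2 controls. The lowest and the highest of the batch 1 controls were replicate 1 and replicate 4. In bulk tissue, fewer cells of a type and less RNA per cell cannot be told apart.

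The diets were compared first within batch 1, where 5 WD and 4 control libraries shared the batch. No subunit gene passed an FDR of 0.05 in edgeR's quasi-likelihood test, and none of the 12157 genes tested did (0.0% in either direction). The log2 fold change of WD over control was 1.80 ± 0.69 (SE, FDR = 0.77) for Cybb, a 3.49-fold difference, and 1.52 ± 0.54 (SE, FDR = 0.661) for Cyba, a 2.87-fold difference. It was 1.37 ± 0.70 (SE, FDR = 1.0) for Rac2 and 0.66 ± 0.59 (SE, FDR = 1.0) for Ncf1. For Ncf4 the fitted value of 2.76 ± 1.98 (SE, FDR = 1.0) rested on a control group with 3 of 4 libraries at 0, and that gene passed the filter on low counts through its WD libraries.

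At an unadjusted p under 0.05, 628 of all genes passed in batch 1, of which 407 (3.35%) were higher in WD, and Cybb and Cyba were among them. DESeq2 called 114 genes at an adjusted p under 0.05, none of them a subunit gene. By an exact two-sided permutation test of 5 against 4 libraries, both Cybb and Cyba had p = 0.00794, the smallest this design allows, which became 0.275 after adjustment over all genes tested. The groups did not overlap, with WD higher, for 3.03% of all genes tested, and for 2 of the 5 subunit genes. Rac2 had an exact permutation p of 0.0238, Ncf4 of 0.0159 and Ncf1 of 0.119, with adjusted values of 0.393, 0.349 and 0.649.

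Control replicates 1 and 4 pulled the batch 1 values of Cybb, Ncf1 and Rac2 in opposite directions. Without control replicate 4 the log2 fold change was 2.80 for Cybb (FDR = 0.0936), 2.09 for Rac2, 1.26 for Ncf1, 1.56 for Cyba and 2.33 for Ncf4. Without control replicate 1 it was 1.42 for Cybb, 1.03 for Rac2, 0.28 for Ncf1, 1.18 for Cyba and 2.35 for Ncf4. With both left out, Cybb had a log2 fold change of 2.31 ± 0.37 (SE) and an FDR of 0.00889 in edgeR, 1 of 108 calls over all genes, and the other 4 subunit genes stayed above an FDR of 0.05. Without control replicate 3, the only batch 1 control with a count of Ncf4, the fitted value of that gene was 9.20, against a group at 0, and is no measure of size.

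Over all libraries, with 9 controls against 5 WD, Cybb and Cyba lay just beyond the threshold in edgeR and the other 3 subunit genes far from it. Cybb had a log2 fold change of 2.02 ± 0.46 (SE, FDR = 0.0558), or 4.06-fold, and Cyba of 1.73 ± 0.41 (SE, FDR = 0.0648), or 3.33-fold. The values were 1.57 ± 0.66 (SE, FDR = 0.527) for Rac2, 1.02 ± 0.45 (SE, FDR = 0.577) for Ncf1 and 2.33 ± 1.54 (SE, FDR = 0.883) for Ncf4. Of 12653 genes tested, 67 were called, 55 of them higher (0.435%) and 12 lower (0.0948%) in WD, and no subunit gene was among them. The WD libraries did not overlap the 9 controls for Cybb and Cyba, a pattern with WD higher that held for 1.13% of all genes tested. The exact permutation test of 5 against 9 libraries gave p = 0.0005 for Cybb, the smallest possible, and 0.000999 for Cyba, or 0.0638 and 0.086 adjusted over all genes tested.

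The side of the threshold depended on the fit for this pair of genes. DESeq2 gave adjusted p-values of 0.00347 for Cybb and 0.0101 for Cyba, with 225 calls in all, and limma-voom gave 0.00923 and 0.0214, with 223 calls. Without control replicate 1 edgeR gave an FDR of 0.00571 for Cybb and 0.0186 for Cyba, and without control replicate 4 it gave 0.00146 and 0.0218. Without control replicate 2 the FDR was 0.0448 for Cyba and 0.0941 for Cybb. Of the 14 fits that each left out 1 library, 2 called Cybb and 3 called Cyba, and the FDR rose to as much as 0.159 and 0.205. With replicates 1 and 4 both left out, Cybb (FDR = 2.62e-06), Cyba (FDR = 0.00435) and Ncf1 (FDR = 0.0161) were called in edgeR. With batch as a covariate the log2 fold changes were 1.77 for Cybb (FDR = 0.313) and 1.50 for Cyba (FDR = 0.338), and 1 gene in all was called.

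The WD libraries were then set beside the batch 2 controls alone, a comparison that shares its WD libraries with that of batch 1 and in which diet and batch cannot be told apart. Here 3 of the 5 subunit genes rose, against 474 of 12070 genes tested (3.93%). Cybb rose by 2.26 ± 0.23 on the log2 scale (SE, edgeR FDR = 1.57e-05), Cyba by 1.95 ± 0.34 (SE, FDR = 0.00169) and Ncf1 by 1.43 ± 0.29 (SE, FDR = 0.00576), or 4.80-fold, 3.87-fold and 2.69-fold. All 3 calls held without each library in turn. Rac2 had a log2 fold change of 1.78 ± 0.65 (SE, FDR = 0.134) and Ncf4 of 2.06 ± 1.39 (SE, FDR = 0.525). Cybb, Cyba, Ncf1 and Rac2 did not overlap between the groups, a pattern with WD higher that 4.99% of all genes tested had, and each had an exact permutation p of 0.00794, the smallest for 5 against 5 libraries, and 0.0903 adjusted over all genes tested.

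Between the control groups of the 2 batches, fed the same diet, Ncf4 did not pass the filter on low counts and was not tested. None of the 4 subunit genes tested passed the threshold, and neither did any of the 12106 genes tested in edgeR (0.0%). At an unadjusted p under 0.05 there were 895 genes, and DESeq2 called 111. Batch 2 over batch 1, the log2 fold change was -0.45 for Cyba, -0.47 for Cybb, -0.78 for Ncf1 and -0.42 for Rac2, with FDR values of 0.909 and above. The SE of these values ran from 0.64 to 1.05. Without control replicate 4 the sign turned for Cybb (0.55) and Rac2 (0.33). The order of the groups by mean was thus WD first for all 5 genes. None of the differences between the 2 control groups that could be tested passed, and that of Ncf4 was not tested.

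**Figure D2:**
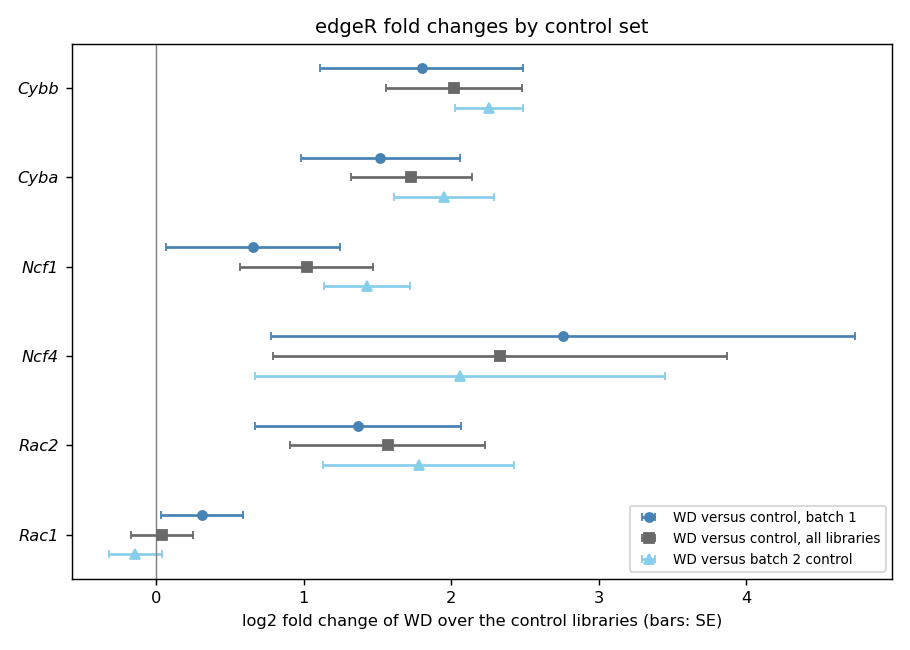
Log2 fold change of WD over control (horizontal axis, bars show the SE from edgeR) for the 5 subunit genes and for Rac1, with the batch 1 controls (circles), all 9 controls (squares) or the batch 2 controls (triangles), which share the 5 WD libraries. The 5 subunit genes lie above 0 with each control set, from 0.66 to 2.76, and Rac1 stays within 0.31 of 0.

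Rac1, the GTPase of the Rac2 family that most cell types express, had 164 ± 38.6 CPM in the batch 1 controls, 203 ± 36.8 CPM in the WD group and 222 ± 25.7 CPM in the batch 2 controls (SD, n = 4, 5 and 5). Its log2 fold change was 0.31 ± 0.28 (SE, FDR = 1.0) in batch 1 and -0.14 ± 0.18 (SE, FDR = 0.812) against batch 2 in edgeR, and its groups overlapped in both. Rac3, the third of the family, was at most at 2.22 CPM and did not pass the filter. Daglb overlaps the 3′ end of Rac1 on the other strand by 462 bases and had up to 756 counts, so that the reads of this pair may be mixed.

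The other oxidases of the family were scarce or gave no difference past the threshold. Nox1, the catalytic subunit best known from colon epithelium, had 26 ± 6.18 CPM in the WD group against 50.9 ± 47.7 in the batch 1 controls and 50.4 ± 25.9 in the batch 2 controls (SD, n = 5, 4 and 5). Its log2 fold change was -0.98 ± 0.57 in batch 1 (SE, FDR = 1.0) and -0.97 ± 0.32 (SE, FDR = 0.0915) against batch 2 in edgeR. Every WD library lay below every batch 2 control, a pattern with WD lower that 3.8% of all genes tested had. The exact permutation p there was 0.00794, or 0.0903 adjusted over all genes tested. The highest level of Nox1 was 121 CPM, in control replicate 1, and without that library the batch 1 controls had 27.6 ± 11.7 CPM (SD, n = 3) and the batch 1 log2 fold change was -0.08 ± 0.53 (SE, edgeR FDR = 1.0). Nox4, an oxidase that is active without cytosolic subunits, ranged from 1.72 to 10.6 CPM in WD and from 0 to 11.2 CPM in the controls. Duoxa1, a maturation factor of the dual oxidases, ranged from 4.81 to 15.6 CPM in WD and from 0 to 12.8 CPM in the controls, and the organizer Noxo1 was at 0 in 4 of 9 control and 2 of 5 WD libraries and at most at 6.0 CPM. Nox3, Noxa1, Duox2 and Duoxa2 had 0 counts in every library, and Duox1 reached 24 counts at most. Of these 11 genes, Rac1 and Rac3 included, 5 could be tested in batch 1 and none was called there, over all libraries or against batch 2.

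Genes that assemble, switch on or damp the phagocyte oxidase were read from a list of 32, of which 31 were in the table and 30 were tested. In batch 1 none was called, their median log2 fold change was 0.74 and 25 of 30 values were above 0, beside a median of 0.03 and 51.8% above 0 over all genes tested. Over all libraries none was called either, at a median of 1.12, but 8 rose without control replicate 4. Against the batch 2 controls 14 of 30 rose and none fell, beside 3.93% of all genes tested that rose, and that count was 7 without WD replicate 3 and 9 without control replicate 5, 6 or 9.

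By the rule for naming genes, the list gave Coro1a and Fcgr1. Coro1a, an actin-binding protein of leukocytes that associates with the cytosolic subunits, had 36.3 ± 15.5 CPM in WD, 3.50 ± 2.33 CPM in the batch 1 controls and 12.5 ± 3.29 CPM in the batch 2 controls (SD, n = 5, 4 and 5). Its edgeR FDR was 0.557 in batch 1 and 0.0215 against batch 2, and it was called in 7 of the 10 fits that each left out 1 library against batch 2. Fcgr1, the high-affinity receptor for IgG that triggers the burst, had 25.2 ± 13.1, 3.11 ± 2.67 and 2.64 ± 2.42 CPM in the same order, with FDR values of 0.831 and 0.0249, the latter call held in 5 of 10 such fits.

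Further genes of that list were chosen after their values were seen. Nrros, which is known to lower the amount of gp91phox, rose by 1.62 on the log2 scale against the batch 2 controls (edgeR FDR = 0.00223) and had 1.02 in batch 1 (FDR = 1.0). Dock2, a Rac exchange factor of leukocytes, rose by 2.39 (FDR = 0.00113) and Vav1, another such factor, by 2.81 (FDR = 0.0369) against batch 2. Prkcd, a kinase of p47phox, rose by 1.87 there (FDR = 0.0377) and had -0.07 in batch 1 (FDR = 1.0). Hvcn1, the proton channel that balances the charge moved by the oxidase, did not pass in any comparison and had 7.31 ± 5.24 CPM in WD against 12.9 ± 17.3 and 11.2 ± 4.39 CPM in the batch 1 and batch 2 controls (SD, n = 5, 4 and 5).

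Among 13 transcription factors known to act on phagocyte oxidase genes, 11 were tested. Spi1 (PU.1) rose over all libraries by 2.02 ± 0.44 on the log2 scale (SE, edgeR FDR = 0.0418) and against the batch 2 controls by 2.23 ± 0.31 (SE, FDR = 0.000274). In batch 1 its log2 fold change was 1.83 ± 0.63 (SE, FDR = 0.61). The call over all libraries was kept in 3 of the 14 fits that each left out 1 library, with FDR values up to 0.141, and that against batch 2 in all 10. With batch as a covariate it was lost, at 1.80 ± 0.58 (SE, FDR = 0.302). Spi1 had 78.0 ± 22.9 CPM in WD, 21.9 ± 18.6 CPM in the batch 1 controls and 16.5 ± 5.48 CPM in the batch 2 controls (SD, n = 5, 4 and 5). It was the only one of the list called over all libraries, where 0.435% of all genes tested rose. Against batch 2 Irf8, its partner on composite sites, rose too, by 2.15 (FDR = 0.00118). That made 2 of 11 there, beside 3.93% of all genes tested. The median of the list was -0.03 in batch 1, beside 0.03 over all genes tested, and 0.36 against batch 2.

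The enzymes that remove superoxide and peroxide had a median fold change close to that of all genes. Of 27 genes, all tested, none was called in batch 1 or over all libraries. Against batch 2, 1 of 27 rose and 1 of 27 fell, close to the 3.93% and 2.48% of all genes tested that did. Hmox1, a stress-induced heme oxygenase, rose there by 1.57 (edgeR FDR = 0.0409) and catalase (Cat) fell by 0.84 on the log2 scale (FDR = 0.013). Without control replicate 5, among others, the call of Hmox1 was lost. The median was 0.03 in batch 1 and -0.09 against batch 2. Gpx3, the secreted glutathione peroxidase, had the largest batch 1 value, -1.71 ± 0.48 (SE, edgeR FDR = 0.478), at 184 ± 104 CPM in WD and 600.0 ± 276 CPM in the batch 1 controls (SD, n = 5 and 4). Prdx5 had 1.56 ± 0.50 (SE, FDR = 0.557) in batch 1.

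Of 11 other oxidant-producing enzymes in the table, 7 could be tested, and 1 was called over all libraries. It was lower in WD, as were 0.0948% of all genes tested. Cyp2e1, a cytochrome P450 that leaks oxidants, fell by 5.93 on the log2 scale (edgeR FDR = 0.00647). It had 19 ± 25.5 CPM in WD, 446 ± 377 CPM in the batch 1 controls and 1710 ± 490 CPM in the batch 2 controls (SD, n = 5, 4 and 5), and its log2 fold change was -4.56 ± 0.96 (SE, FDR = 0.434) in batch 1. That call held without each library in turn, and with batch as a covariate no enzyme of the list was called. Mpo, Epx and Lpo, the peroxidases that use peroxide from the burst in neutrophils, eosinophils and secretions, had 0 counts in every library.

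**Figure D3:**
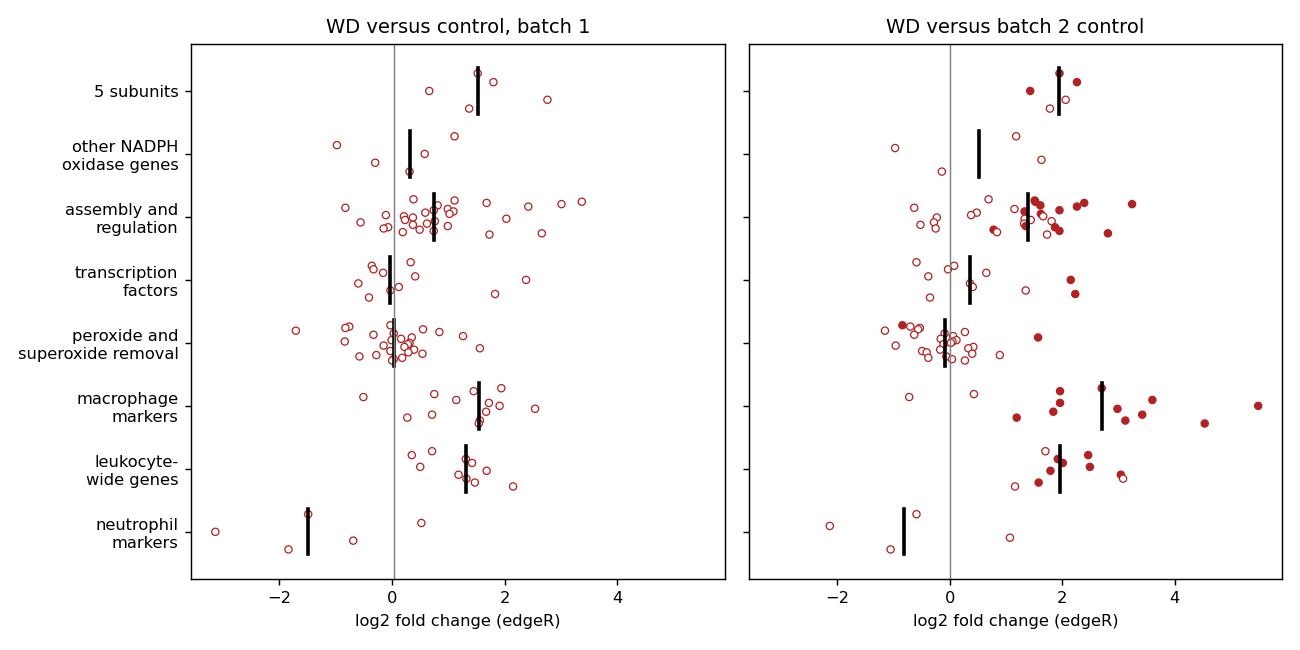
Log2 fold changes (horizontal axes, edgeR) of each tested gene in 8 lists, against the batch 1 controls (left) and the batch 2 controls (right), with filled circles for genes at an FDR under 0.05, thick bars at each list's median and a grey line at the median of all genes tested. No circle is filled on the left, while on the right 3 of 5 subunit genes, 14 of 30 assembly and regulation genes and 11 of 13 macrophage markers are. Against the batch 2 controls 3.93% of all genes tested rose.

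The summed level of the macrophage markers was higher in the WD libraries than in most controls, while that of the subunits was higher than in every control. The 14 macrophage markers summed to 2350 to 3860 CPM in WD, to 438 to 2540 CPM in the batch 1 controls and to 445 to 861 CPM in the batch 2 controls, and none of them was at 0 in every library. Of 13 tested, none was called in batch 1, 4 rose over all libraries and 11 rose against batch 2, with medians of 1.54, 1.84 and 2.70. The shares of all genes tested that rose were 0.435% over all libraries and 3.93% against batch 2. Between the 2 control groups, on the same diet, no marker was called, but their median was -0.78 (batch 2 over batch 1). There 5 of 13 had an unadjusted p under 0.05 in edgeR, beside 895 of 12106 genes tested, and 2 of 13 values were above 0. Over all libraries, Adgre1 (F4/80) rose by 2.30 (edgeR FDR = 0.00973), C1qa by 1.70 (FDR = 0.00783), Itgax by 2.75 (FDR = 0.0278) and Csf1r by 1.84 (FDR = 0.0395). Not all members moved this way. Cd163, a scavenger receptor of resident macrophages chosen after its values were seen, had 69.2 ± 26 CPM in WD, 98.6 ± 55.1 CPM in the batch 1 controls and 113 ± 28.2 CPM in the batch 2 controls (SD, n = 5, 4 and 5), with log2 fold changes of -0.51, -0.64 and -0.72 in batch 1, over all libraries and against batch 2 that did not pass. In batch 1, Mrc1 and Cd14, chosen likewise, had 0.27 ± 0.46 and 0.75 ± 1.02 (SE). Adgre1 and C1qa kept their calls without each of the 14 libraries in turn, Itgax in 6 and Csf1r in 2 of those 14 fits. The count of 4 became 10 without control replicate 4, 6 without control replicate 1, 2 without some of the others, and 0 with batch as a covariate. The highest macrophage sum among the controls, 2540 CPM, was in control replicate 4, also the control with the highest Cybb, Ncf1 and Rac2. The part of macrophage content in the subunit values was not tested.

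The 10 leukocyte-wide genes summed to 681 to 1340 CPM in WD, 175 to 742 CPM in the batch 1 controls and 168 to 277 CPM in the batch 2 controls. None was called in batch 1, 1 of 10 rose over all libraries (Laptm5, by 1.73, edgeR FDR = 0.0231) and 7 of 10 rose against batch 2. The shares over all genes tested were 0.435% and 3.93%. Between the 2 control groups the leukocyte-wide genes had a median log2 fold change of -0.82 (batch 2 over batch 1), with none called. Laptm5 kept its call over all libraries in 8 of 14 fits that each left out 1 library and lost it with batch as a covariate (FDR = 0.195). The sum of 742 CPM was that of control replicate 1, where Cd52 alone, chosen after its value was seen, had 518 CPM. Control replicate 4, at 690 CPM, also lay above WD replicate 5 at 681 CPM. Neutrophils, the other main carrier of the enzyme, gave a different picture. Their 12 markers in the table summed to 61.6 to 163 CPM in WD, 139 to 336 CPM in the batch 1 controls and 45.5 to 145 CPM in the batch 2 controls. None of 5 tested was called in batch 1 or over all libraries, nor any of 4 against batch 2. Elane, Ngp and Camp were at 0 in every WD library, but Elane also in every batch 1 control and in 1 of 5 batch 2 controls. Ngp was at 0 in 1 of 4 batch 1 and 4 of 5 batch 2 controls, and Camp in 3 of 4 and 4 of 5. S100a8, chosen after its values were seen, had log2 fold changes of -0.69 ± 0.39 in batch 1 and 1.07 ± 0.53 against batch 2 (SE), neither called. S100a9 had a log2 fold change of -1.84 ± 1.11 (SE, edgeR FDR = 1.0) and Retnlg of -3.14 ± 1.77 (SE, FDR = 1.0) in batch 1.

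No marker of B cells, of T and NK cells, of dendritic cells, of mast cells or of mesothelium was called in any comparison of the diets, but not all of them could be tested. In batch 1 the tested ones were 3 of 8 B cell, 1 of 10 T and NK cell, 5 of 8 dendritic cell, 5 of 7 mast cell and 6 of 6 mesothelial markers. The B cell sum was 98.1 CPM in WD replicate 3, 4.02 to 13.9 CPM in the other WD libraries and at most 7.56 CPM in the controls. That of the mast cells was 131 CPM in WD replicate 1, 18.2 to 63.3 CPM in the other WD libraries and at most 57.3 CPM in the controls. The mast cell proteases Cpa3 and Cma1 had batch 1 log2 fold changes of 3.21 ± 1.58 and 2.38 ± 1.97, and the mesothelial markers Krt19 and Msln of -2.43 ± 1.78 and 1.79 ± 2.15 (SE, each FDR = 1.0). Stromal and endothelial markers had a median log2 fold change of -0.03 in batch 1, with none called. Against batch 2, 2 of 11 rose, beside 3.93% of all genes tested. Cdh5, a junction protein of endothelium, had 1.13 ± 1.18 and Dpp4, a surface peptidase, -0.88 ± 1.42 in batch 1 (SE, each FDR = 1.0). Adipocyte markers had a median of -0.01 in batch 1, with none called. Against batch 2, 8 of 11 fell and 1 rose, where 2.48% of all genes tested fell and 3.93% rose. Between the 2 control groups, on the same diet, the adipocyte markers had a median of 0.91 (batch 2 over batch 1). All 11 values were above 0 there, and none was called. Cfd (adipsin) had -1.40 ± 0.63 (SE, FDR = 0.95) in batch 1 and fell by 3.07 against batch 2 (FDR = 9.78e-06), and Lep (leptin) had 1.38 ± 0.47 (SE, FDR = 0.593) and rose by 1.29 (FDR = 0.00611). Of the epididymis markers, 2 of 15 were tested in batch 1, and Adam7 had 11800 CPM in control replicate 1 and at most 6.57 CPM in the WD libraries.

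**Figure D4:**
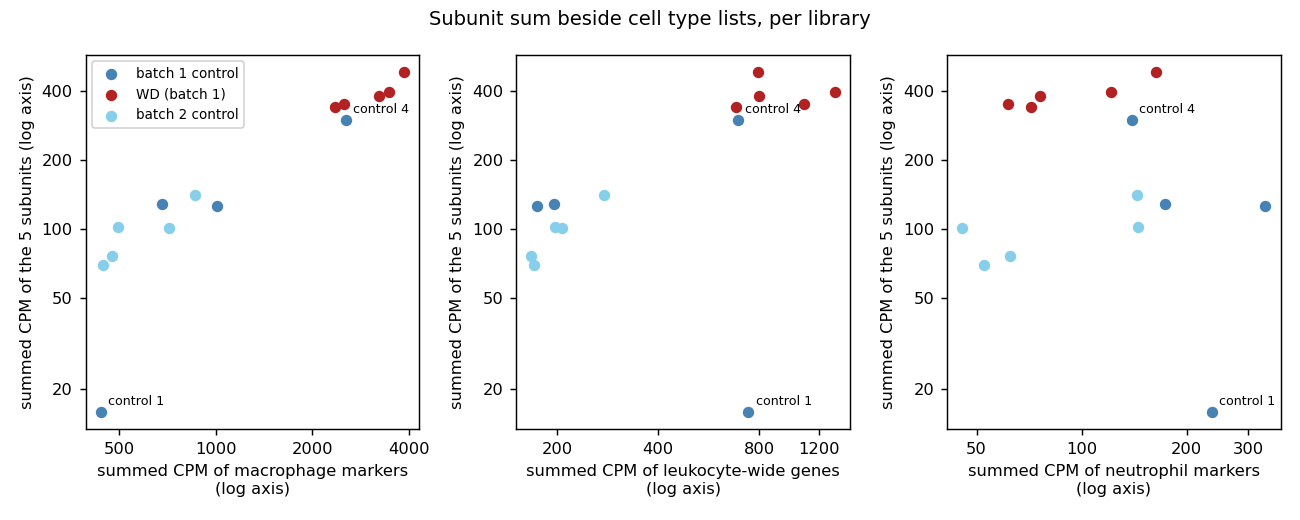
Summed CPM of the 5 subunit genes (vertical, log axis) against the summed CPM of 14 macrophage markers, 10 leukocyte-wide genes and 12 neutrophil markers (horizontal, log axes), 1 point per library. Along the macrophage axis the 5 WD libraries and control replicate 4 lie together at the top right, and along the neutrophil axis the WD libraries, at 61.6 to 163 CPM, lie within the range of the controls.

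Each subunit's log2 level was also set against the mean log2 level of the 14 macrophage markers within its own library, as a description. For Cybb the difference was 1.10 ± 0.43 in WD, 1.09 ± 0.37 in the batch 2 controls and 0.10 ± 1.22 in the batch 1 controls (SD, n = 5, 5 and 4), where control replicate 1 had -1.62. For Cyba it was -0.60 ± 0.76, -0.31 ± 0.37 and -0.75 ± 1.10 in the same order, and for Rac2 -1.70 ± 0.58, -1.55 ± 1.54 and -1.74 ± 0.48. The ranges of WD and of both control groups overlapped for these 3 genes. For Ncf1 the difference was -0.57 ± 0.22 in WD (range -0.75 to -0.23) and 0.22 ± 0.39 in the batch 2 controls (range -0.20 to 0.76). These groups did not overlap, while the batch 1 controls ranged from -1.54 to 0.72. The share of all genes that separate on this measure was not computed. The macrophage mean itself was 6.65 ± 0.29 in WD and 4.40 ± 0.41 in the batch 2 controls (SD). A gene that rose less than this mean therefore lies lower in WD here. Set against the 10 leukocyte-wide genes instead, Ncf1 ranged from 0.00 to 0.92 in WD and from 0.72 to 1.28 in the batch 2 controls, and the groups overlapped. For Ncf4 the difference from the macrophage markers was -3.91 ± 0.53 in WD, -3.52 ± 1.23 in the batch 2 controls and -4.51 ± 1.64 in the batch 1 controls, with overlapping ranges. Rac1, a gene of many cell types, stood at 1.00 ± 0.38 in WD, 3.39 ± 0.46 in the batch 2 controls and 2.27 ± 1.10 in the batch 1 controls. Its range in the batch 1 controls, 0.63 to 2.94, overlapped that of WD, 0.63 to 1.50.

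The genes whose levels ran closest to each subunit were found by the root mean square difference of mean-centred log2 levels over the 14 libraries, among 9871 genes with a mean of at least 5 CPM. For Cybb, whose own levels varied by 1.51 about their mean, they were Clec4a3 (0.45), Clec4b1 (0.47) and Marc1 (0.53). For Cyba they were Vcam1 (0.53), Gng2 (0.55) and Nrros (0.55), the regulator of gp91phox named above. Ncf1 lay closest to Ephx1 (0.37), Cryab (0.44) and Postn (0.44), Ncf4 to Tm6sf1 (0.78), Slfn2 (0.80) and Cxcr4 (0.81), and Rac2 to Rftn1 (0.66), Taok3 (0.67) and Lgals3 (0.68). Among the subunits themselves, Cyba and Ncf1 were the closest pair at 0.63, Cybb and Ncf1 stood at 0.73 and Cybb and Cyba at 0.75, and Ncf4 and Rac2 were the farthest apart at 1.31. All these libraries share the diets and batches, so the values describe likeness in these data only.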

How the data were processed

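QuantSeq 3′ mRNA sequencing measured eWAT RNA in 14 libraries, 9 control and 5 WD, grouped by the diet, batch and number in the labels. The authors used Bowtie2 for alignment of single-end reads and took counts per gene from Bedtools coverage, multiple alignments included, and deposited them unnormalized. They also deposited log2 values made with TMM and CPM in edgeR, which differed from log2(CPM + 1) computed here by at most 0.0507. Per the labels the build is mm10, and 99.5% of gene positions matched GENCODE on GRCm38.

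Counts were tested with edgeR 4.0.16 in R 4.3.3 (quasi-likelihood test, TMM, filterByExpr, Benjamini-Hochberg FDR threshold 0.05), without covariates, in 4 comparisons. Alternatives were upper-quartile and relative log expression factors, library totals alone, no filter, a CPM of at least 1, DESeq2 1.42.0, limma-voom (limma 3.58.1), a batch term, the replicate number as a block, and leaving out libraries. Exact two-sided permutation tests compared mean log2(CPM + 1), pseudocount 1, for each gene tested, adjusted over all of them. Levels, lists and plots used Python 3.11.15, numpy 2.4.6, pandas 2.3.3, scipy 1.17.1 and matplotlib 3.10.9. The pipeline was tested on simulated data.

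The detection limit covers counting error only, since no molecular identifiers are named, and p-values measure the spread between these libraries, 1 per numbered sample. No pair of libraries of the same diet and batch agreed within sampling noise (chi-square per gene of at least 34.9). The subunit genes and all lists were chosen with earlier results of these data known. From each list the text names members called in batch 1 or over all libraries (at most 4 by FDR), otherwise the 2 with the largest log2 fold change in batch 1 at a mean of at least 5 CPM, all other NADPH oxidase genes, and the 3 nearest genes of each subunit. Cybc1, Mt-Nd1, Ly6g and Trac were not analysed here, and 1 further listed gene is not reported here.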

Additional observations from a re-analysis of the deposited data

Results flagged for a closer look

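Among 18 sets of libraries, 6 genes in 3 groups each, 2 held a library far from the others by Dixon's criterion, where chance gives about 0.9. The level of Cyba in control replicate 1 was 2.38 on the log2(CPM + 1) scale (39 counts), against 4.79 to 5.19 in the other batch 1 controls. That library is the one with 45400 CPM of epididymis markers and the lowest adipocyte sum, 6590 CPM. Ncf4 was at 2.20 in control replicate 3 (43 counts) and at 0 in the other 3 batch 1 controls. The cause of each was not tested.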

How the results depend on the processing

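The subunit fold changes between the diets kept their sign under every alternative run. The count of genes called in batch 1, 0 in edgeR, was 114 with DESeq2, 108 without control replicates 1 and 4, and 0 to 48 without single libraries. Over all libraries the 67 calls became 225 with DESeq2, 223 with limma-voom, 619 without control replicates 1 and 4, 1 with a batch term and 28 to 289 without single libraries. Against batch 2 the 773 calls ranged from 729 to 1154 across settings and from 565 to 977 without single libraries. Between the control groups the 0 calls became 111 with DESeq2 and 0 to 2 without single libraries. Signs turned for Rac1 over all libraries (-0.089 without control replicates 1 and 4, and -0.044 to 0.14 without single libraries). Between the control groups they turned for Cybb (0.14 with limma-voom, -0.87 to 0.55 without single libraries) and Rac2 (-0.78 to 0.33 without single libraries). Against batch 2, DESeq2 put Rac2 at an adjusted p of 0.0498. The cause was not tested. With the replicate number as a block, batch 1 had 0 calls. The deviations of same-numbered control and WD libraries had correlations of -0.0287 to 0.0741. These values show no shared deviation by number, but they cannot tell whether the numbers pair the mice. Without WD replicates 1 to 4 in turn, the exact permutation p of Ncf4 and Rac2 in batch 1 passed above 0.05. At these depths genes near 3 counts, such as Ncf4 in most controls, limit what can be shown.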
